A study of Homo sapiens with 4 samples.

Results

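The 7 genes described here, ACTB, ACTG1, TUBA1B, GAPDH, EEF1A1, EEF2 and HSP90AB1, encode abundant housekeeping mRNAs from short transcription units of 2896 to 9408 bases. Their peaks were taken from CLIP-seq peak lists of SAF-A in HCT116 cells, an established human colorectal carcinoma line described in the series' design as wild type for SAF-A. A peak was counted for a gene when its midpoint lay between the gene's bounds on GRCh37 and it was on the gene's strand. By this rule, 204 of the 278959 peaks in 4 lists belonged to the 7 genes. The groups were 2 input samples and 2 pull-down samples, all from cells irradiated with UV light and lysed, with DNase I and a little RNase A added to the lysate. Input is cleared lysate, and pull-down is the part of it recovered with a SAF-A antibody. RNA of both was taken from the same size range of the membrane, so input gives the background for the pull-down. No genotype, treatment or time differed between the groups, and the labels name no separate cultures for the replicates. All p-values therefore cover the spread of these 4 samples alone, and that spread may be technical.

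SAF-A, also called hnRNP U, is an abundant nuclear protein that binds RNA and chromatin and is known for its contacts with nuclear and nascent transcripts. Housekeeping mRNAs are spliced, exported and translated, and most of their copies are found in the cytoplasm. The cytoskeletal genes ACTB and ACTG1 encode the cytoplasmic actins and TUBA1B an alpha-tubulin. GAPDH encodes a glycolytic enzyme, EEF1A1 and EEF2 encode the factors that deliver aminoacyl-tRNA to the ribosome and move the ribosome along the message, and HSP90AB1 encodes a constitutive cytosolic chaperone.

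The input lists held 29386 and 42256 peaks (replicates 1 and 2) and the pull-down lists 96061 and 111256. Values below are therefore given as numbers of peaks and as peaks per 10000 listed peaks, which is each gene's share of its list. Read depth is unknown. The lists hold no read counts, so the amount of an RNA and its contact with SAF-A are told apart here only by the comparison with input. The positions of the files fit GRCh37: at the GRCh37 bounds of the 6 genes other than EEF2 the 4 lists held 134 peaks on the gene's strand, and at the GRCh38 bounds of the same genes they held 0. EEF2 lies at nearly the same position in both builds. Exon positions on GRCh37 were not used here, so no peak is called exonic or intronic.

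Both pull-downs held fewer peaks in the 7 genes than both inputs, although their lists were longer. Input replicates 1 and 2 listed 59 and 82 peaks in the genes, pull-down replicates 1 and 2 only 32 and 31. As shares, these were 20.1 and 19.4 per 10000 for input, 3.33 and 2.79 per 10000 for pull-down. The mean share was 19.7 ± 0.48 in the inputs and 3.06 ± 0.39 in the pull-downs (SD, n = 2 each), which is 6.45 times higher for input and gives -2.69 as the log2 of pull-down over input. A two-sided exact permutation test of 2 against 2 samples cannot give less than p = 0.33, which was reached here. A counting interval on the summed numbers, 63 against 141 peaks, put the ratio of the shares between 0.113 and 0.209 (exact 95% interval, counting error only, with neighbouring peaks taken as independent). With covered bases in place of peaks the log2 ratio was -1.82, and among wide peaks (at least 50 bases) alone it was -1.73.

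In all 7 genes both pull-down shares lay below both input shares. Of the 388 genes and windows of 5 kb with a mean of at least 3 peaks per library, 44.1% had this order. TUBA1B and EEF1A1 fell under that minimum, so this is not a like comparison for all 7 genes. The minimum also lets in windows with few input peaks only where they are high in the pull-downs. Among 24 other windows with a mean of at least 9 input peaks, 95.8% were called lower in the fit described below. The order is therefore not read as particular to the 7 genes. For most genes the separation was wide, for the elongation factor EEF1A1 it was narrow. EEF1A1 stood at 0.208 in pull-down replicate 1 and at 0.237 in input replicate 2. In numbers of peaks, without division by the list, the elongation factors showed little difference. EEF2 had 17 and 19 peaks for input and 17 for each pull-down, and EEF1A1 had 2 and 1 for either kind of library.

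**Figure D1:**
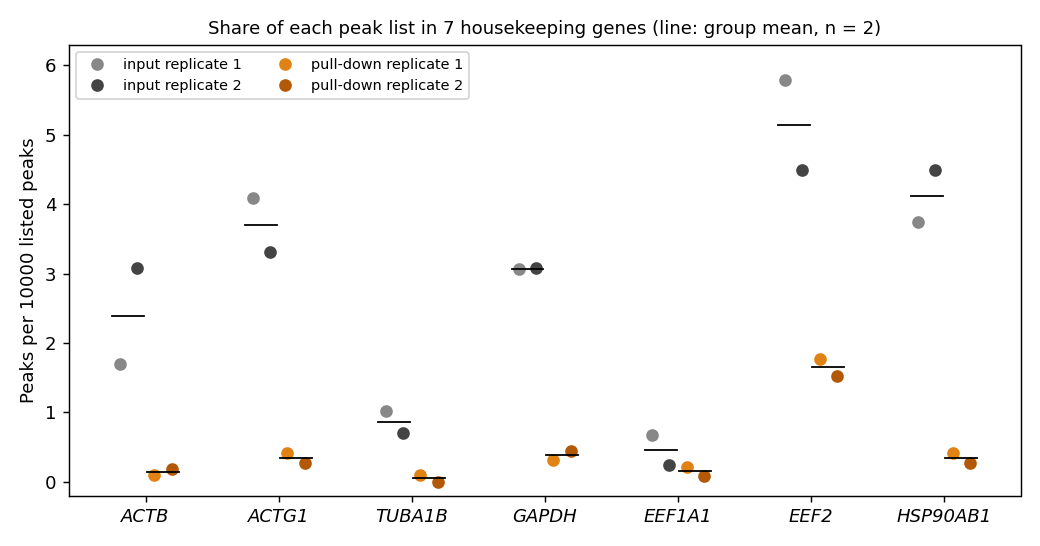
Peaks per 10000 listed peaks (y axis) in each of the 7 genes (x axis), with 1 point per library and a line at the mean of each group (n = 2). Both pull-down points lie below both input points in every gene, and EEF2 has the highest pull-down points, at 1.77 and 1.53.

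For a test across the genome, each gene was fitted together with windows of 5 kb on 1 strand, about the length of the genes, in limma with Benjamini-Hochberg adjustment. Of the 7 genes, 5 reached the minimum mean of 3 peaks per library, and EEF1A1 and TUBA1B did not. ACTB reached it only through its input peaks, so a lower value was set by the minimum and its fitted ratio is given below as a description. ACTG1, GAPDH, EEF2 and HSP90AB1 averaged at least 3 peaks in each group, and each was called lower in the pull-downs at an adjusted p under 0.05. Of the 388 genes and windows tested, 39.4% were called lower, with a median log2 ratio of -0.11. That share depended on the libraries: it was 25.8% without input replicate 1, 28.6% without input replicate 2, 52.3% without pull-down replicate 1 and 60.4% without pull-down replicate 2. The minimum is a mean over both kinds of library, so a window with few input peaks passes only where it is high in the pull-downs. Among the 24 other windows with a mean of at least 9 input peaks, the mean of ACTB, 95.8% were called lower, with a median of -2.62. Of these windows, 18 are nuclear and the rest mitochondrial, and 94.4% of the nuclear ones were called lower, with a median of -2.41. That threshold was added after the values had been seen, and choosing windows by their input peaks favours a lower ratio. Calls like those of the genes were thus near the general rate among windows rich in input peaks. The fit estimates 1 spread for all units of like level. For each of the 5 genes its standard error was smaller than the counting error of the summed peaks. On the log2 scale these were 0.46 against 0.90 for ACTB, 0.31 against 0.61 for ACTG1 and 0.31 against 0.60 for GAPDH. They were 0.30 against 0.61 for HSP90AB1 and 0.25 against 0.35 for EEF2. The adjusted p-values printed below for single genes are therefore probably too small. Without input replicate 2, ACTB fell under the minimum.

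**Figure D2:**
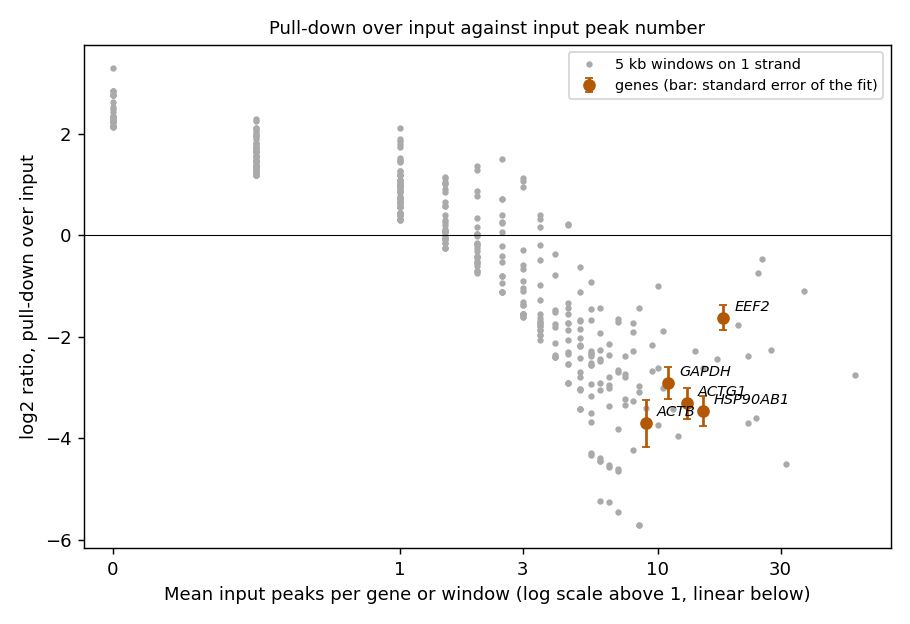
Log2 ratio of pull-down over input (y axis) against the mean number of input peaks (x axis, logarithmic above 1 and linear below) for 383 windows of 5 kb on 1 strand (grey) and 5 genes (orange, bars are standard errors of the limma fit, n = 2 libraries per group). The genes lie among windows with many input peaks, most of which are below 0, and EEF2 is the highest of the 5 at -1.63.

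Of the 5 genes fitted, the actin genes and HSP90AB1 had the lowest log2 ratios. ACTB (chr7:5566779-5570232, minus strand) held 5 and 13 input peaks, and the pull-downs listed 1 and 2. Its shares per 10000 were 1.70 and 3.08 for input, 0.104 and 0.180 for pull-down, so the inputs differed from each other by less than either differed from a pull-down. The fitted log2 ratio was -3.71 (SE 0.46), and the counting interval of the ratio of shares ran from 0.0109 to 0.197. ACTG1 (chr17:79476997-79479892, minus strand), whose protein is nearly identical to that of ACTB, held 12 and 14 input peaks, and the pull-downs listed 4 and 3. Its shares were 4.08 and 3.31 against 0.416 and 0.270, so the groups were far apart for this gene too. The fitted log2 ratio of ACTG1 was -3.32 (SE 0.31, limma adjusted p = 8.9e-24). Together the actin genes had a share of 6.09 ± 0.43 in input and of 0.485 ± 0.050 in pull-down (per 10000, SD, n = 2 each). In the better-scoring 50% of each list both actin genes fell under the minimum of 3 peaks. ACTB and ACTG1 are similar in sequence, and RefSeq names 14 pseudogenes of the first and 21 of the second by their symbols. How the authors placed reads that match several of these copies is not given in the sources used here, so the split between the copies is uncertain.

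The actin sites listed in all 4 libraries stood high in the input lists and low in the pull-down lists. The score is the authors' own number, of unstated meaning, and it is used here only to rank peaks within a list. The lists differ in length and content, so a different rank in input and pull-down is no change in a site. In ACTB the site listed in all 4 libraries, chr7:5569180-5569295, spans bases 938 to 1053 from the gene's first base. It scored above 93.2% and 94.0% of the input lists and above 34.0% and 10.0% of the pull-down lists. ACTG1 had 2 sites in all 4 libraries, near its 5′ end at chr17:79479762-79479827 and further in at chr17:79478998-79479048. The first scored above 90.0% and 94.0% of the input lists and above 23.7% and 24.7% of the pull-down lists. The second scored above 84.0% and 90.3% of the input lists and above 0% and 46.5% of the pull-down lists. The site with the best score of ACTG1 in input replicate 1, at chr17:79478467-79478484, was listed in no other library. ACTB also had a site over its 5′ end, chr7:5570159-5570234, in both inputs, with scores above 84.5% and 93.1% of the lists and no peak in either pull-down.

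TUBA1B (chr12:49521566-49525304, minus strand) held 3 peaks in each input, 1 in pull-down replicate 1 and 0 in replicate 2. Its shares were 1.02 and 0.710 per 10000 against 0.104 and 0. The ratio of shares was 0.0576, with a counting interval of 0.00125 to 0.475 that rests on 1 pull-down peak. The same 3 sites were found in both inputs, near the 5′ end (chr12:49525081-49525178), near the middle (chr12:49523323-49523389) and near the 3′ end (chr12:49521586-49521630). The single pull-down peak lay in the first of these and had the lowest score that occurs in its list.

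GAPDH (chr12:6643585-6647537, plus strand) held 9 and 13 input peaks, and 3 and 5 were listed after pull-down. The input shares were 3.06 and 3.08 per 10000, the closest pair among the 7 genes, and the pull-down shares were 0.312 and 0.449. Its log2 ratio in the limma fit was -2.92 (SE 0.31, limma adjusted p = 1.7e-18). Of its 15 merged sites, 8 were found in both inputs and 3 of those in both pull-downs too. These 3 lie in the 3′ part of the gene, at bases 2493 to 2580, 3194 to 3239 and 3872 to 3921 of 3953. The middle one, chr12:6646778-6646823, scored above 97.1% and 91.7% of the input lists, and above 29.2% and 24.7% of the pull-down lists. As in the actin genes, this site stood near the top of the input lists and in the lower part of the pull-down lists. So did the last of the 3, above 87.6% and 93.9% of the input lists and 9.6% and 24.7% of the pull-down lists. The first did not in input replicate 1. It scored above 0% and 86.8% of the input lists and above 23.7% and 49.5% of the pull-down lists. RefSeq names 65 GAPDH pseudogenes by symbol, the most of the 7 genes by this count, which makes its assignment of reads uncertain. The count takes only symbols made of the gene's name, P and a number. It gave 0 for TUBA1B, EEF2 and HSP90AB1, but copies under other names and related genes were not counted. Assignment of reads to those genes may be uncertain too.

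The elongation factor genes had the log2 ratios closest to 0. EEF1A1 (chr6:74225473-74230755, minus strand) held 2 and 1 input peaks, with the same numbers after pull-down, or 0.681 and 0.237 against 0.208 and 0.0899 per 10000. Its ratio of shares was 0.346 with a counting interval of 0.0463 to 2.58, so a difference between pull-down and input was not detectable for EEF1A1 at these numbers. It held 0.189 to 0.379 peaks per kb in each library, the lowest number per kb among the 7 genes in both inputs, although its mRNA is known as one of the most abundant of the cell. RefSeq names 50 EEF1A1 pseudogenes by symbol, and the part that reads shared with them have in this number was not tested. The sites also differed between the kinds of library. The site found in both inputs, chr6:74229096-74229126, had no pull-down peak, and the site found in both pull-downs, chr6:74230160-74230207 at bases 549 to 596, had no input peak. That site scored above 17.3% and 49.5% of the pull-down lists.

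EEF2 (chr19:3976054-3985461, minus strand) was the gene with the most pull-down peaks. Its shares were 5.79 and 4.50 per 10000 against 1.77 and 1.53, so the groups did not overlap, and the fit gave -1.63 (log2, SE 0.25, limma adjusted p = 5.0e-10). As numbers, EEF2 had 17 and 19 peaks for input and 17 for each pull-down, a pull-down over input ratio of 0.944. Its lower shares thus come mostly from division by the longer pull-down lists. The counting interval of its ratio of shares was 0.198 to 0.537. Among wide peaks alone the log2 ratio was -1.32 with a limma adjusted p of 0.18, which does not pass. EEF2 made up 28.8% and 23.2% of the input peaks of the 7 genes and 53.1% and 54.8% of their pull-down peaks. The two-sided exact permutation p cannot fall below 0.33 for such a difference, and EEF2 was singled out after its values had been seen. Without EEF2, the share of the other genes was 14.6 ± 0.44 in input and 1.41 ± 0.21 in pull-down (per 10000, SD, n = 2 each), or -3.37 as a log2 ratio.

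Along EEF2, the same sites recurred in both kinds of library. Of its 15 sites found in both inputs, 9 were found in both pull-downs too, and of the 35 such sites of the other 6 genes 8 were. This difference in site sharing was not tested. The site at chr19:3982262-3982427, bases 3035 to 3200, scored above 92.4% of each input list and above 89.7% and 92.4% of the pull-down lists. The site at chr19:3979330-3979434, bases 6028 to 6132, scored above 89.7% and 94.4% of the input lists and above 89.7% and 93.3% of the pull-down lists. One more, chr19:3980848-3980985, reached 89.4% and 93.7% of the input lists, then 82.6% and 90.0% of the pull-down lists. These EEF2 sites stood high within each of the 4 lists, and among the 9 they were the highest in the pull-down lists. None of the other sites among the 9 scored above more than 70.0% and 78.6% of the pull-down lists. Most of those other sites stood lower in both pull-down lists than in both input lists. The exceptions were chr19:3978116-3978146 and chr19:3981949-3982041, where the ranges of the input and pull-down lists overlapped. The best-scoring EEF2 site of input replicate 2, chr19:3977484-3977603, was listed in pull-down replicate 1 and not in replicate 2. Of the 7 genes, EEF2 alone has another gene inside its bounds in RefSeq, SNORD37, a small nucleolar RNA made from the host transcript. The position of SNORD37 was not used here, so any peaks of SNORD37 were not separated from those of EEF2.

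The first bases of the elongation factor mRNAs are set here beside what the libraries listed at the 5′ end. Both messages are known to begin with a terminal oligopyrimidine tract, which links their translation to growth signalling. The first 30 transcribed bases from RefSeq (GRCh38.p14, minus strand) are given here because a site at the 5′ end of EEF2, chr19:3985367-3985462 on GRCh37, was listed in all 4 libraries and none was listed at the 5′ end of EEF1A1. Capitals mark the unbroken run of C and T from the first base.

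EEF2 (chr19:3985434-3985463): CTCTTCCgccgtcgtcgccgccatcctcgg

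EEF1A1 (chr6:73521003-73521032): CTTTTTCgcaacgggtttgccgccagaaca

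The run is 7 bases long in both, and 2.63% of the 35116 RefSeq start sites begin with a run at least as long. The length of each gene is the same in RefSeq and in the GRCh37 bounds, 9408 bases for EEF2 and 5283 for EEF1A1, which is the basis for setting the sequence beside the site. The EEF2 site covers bases 0 to 95, counted from 1 at the gene's first base, so it begins 1 base upstream. It scored above 82.3% and 91.1% of the input lists and above 48.0% and 67.4% of the pull-down lists. The first EEF1A1 site of any library began at base 200 and was listed in input replicate 1. Sites over the 5′ end were also listed in both inputs, and in neither pull-down, for ACTB (given above) and for HSP90AB1 (chr6:44214835-44214937). RefSeq gives HSP90AB1 3 start sites, with runs of 0, 5 and 0 bases, and which of them this site covers was not determined. No start sequence of ACTB was used. Whether a listed 5′ end goes with such a tract was therefore not tested.

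HSP90AB1 (chr6:44214848-44221614, plus strand) held 11 and 19 input peaks and only 4 and 3 after pull-down. Its shares per 10000 were 3.74 and 4.50 against 0.416 and 0.270, again without overlap. The log2 ratio in the limma fit was -3.47 (SE 0.30, adjusted p = 4.7e-27). Every pull-down peak of this gene was wide, at 4 of 4 and 3 of 3, whereas 3 of 11 and 4 of 19 input peaks were. The narrow peaks of the gene therefore numbered 8 and 15 in input, and neither pull-down had any (0 in each). Among wide peaks alone its log2 ratio was -1.10 with a limma adjusted p of 0.12, which does not pass.

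The highest-scoring input sites of the 7 genes were in HSP90AB1, and the pull-downs listed them too. The site at chr6:44219762-44219949, bases 4915 to 5102, scored above 98.9% and 99.5% of the input lists and above 82.6% and 83.8% of the pull-down lists. The site at chr6:44218028-44218161 had nearly the same width in all 4 libraries, 132 to 134 bases, and scored above 97.2% and 99.0% of the input lists and above 79.3% and 89.8% of the pull-down lists. A further site, chr6:44215438-44215646 at bases 591 to 799, was listed in both pull-downs, with 181 and 170 bases, and in neither input. It scored above 64.6% and 67.4% of the pull-down lists, the best of the sites in the 7 genes that both pull-downs and no input listed. In HSP90AB1 the pull-downs thus listed the strongest input sites and 1 wide site of their own, and few of the narrow input sites.

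**Figure D3:**
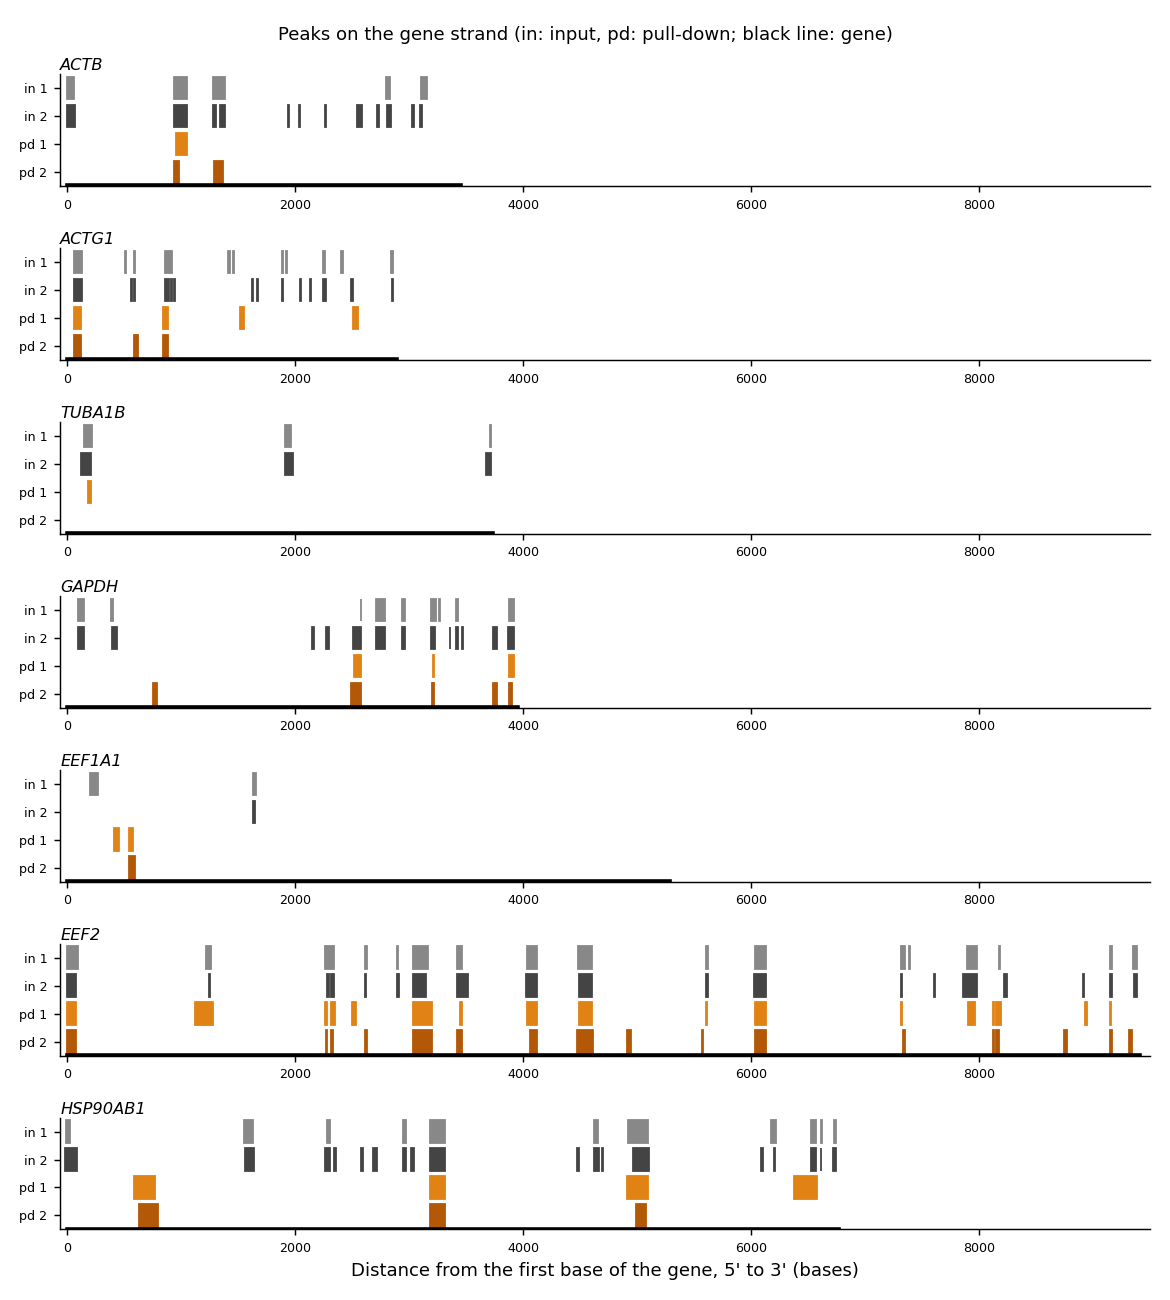
Peaks on the gene strand in input (in) and pull-down (pd) replicates 1 and 2, drawn to scale as boxes along each gene from its first base (x axis, bases, 5′ to 3′), with the gene as a black line. Most of the 17 sites listed in all 4 libraries are in EEF2, and HSP90AB1 shows 1 wide pull-down site at bases 591 to 799 with no input peak.

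Peaks of the 4 libraries that overlapped were merged into 99 sites over the 7 genes. Both inputs shared 50 of them, of which 17 were also in both pull-downs, 8 in 1 pull-down and 25 in none. Both pull-downs shared 21 sites, 11 of them in EEF2. Sites with no input peak numbered 12, and 3 of these were in both pull-downs, in EEF1A1, EEF2 and HSP90AB1. The one in EEF2, chr19:3977333-3977346, had the lowest score that occurs in both pull-down lists. Of the pull-down peaks in the 7 genes, 78.1% (95% Wilson interval 61.2 to 89.0) in replicate 1 and 71.0% (53.4 to 83.9) in replicate 2 overlapped a peak of either input. Among all peaks of those lists the shares were 29.9% and 26.6%. In the other direction, 44.1% (32.2 to 56.7) and 37.8% (28.1 to 48.6) of the genes' input peaks overlapped a pull-down peak, against 71.0% and 67.7% of all input peaks. Most pull-down peaks in these genes thus overlapped an input peak, and most of the genes' input peaks overlapped no pull-down peak.

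**Figure D4:**
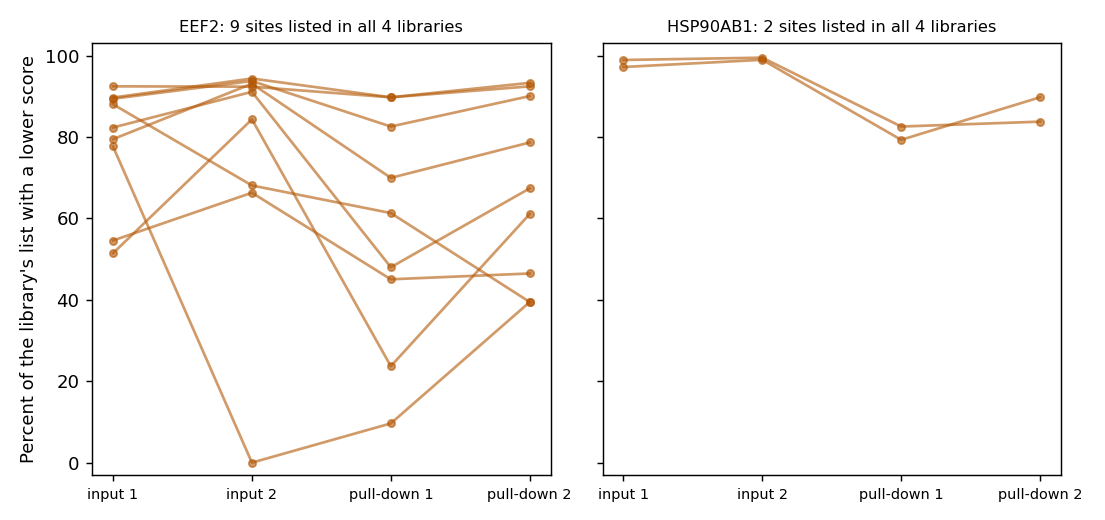
Share of each library's list with a lower score (y axis, percent) for the sites listed in all 4 libraries (x axis) in EEF2 (9 sites) and HSP90AB1 (2 sites), with 1 line per site. The 3 highest pull-down lines of EEF2 stay between 82.6% and 93.3% in the pull-downs, and the HSP90AB1 sites lie at 97.2% or more in the input lists and at 89.8% or less in the pull-down lists, which are longer.

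The genes' peaks were found again between replicates about as often as other peaks. In the pull-downs 65.6% (48.3 to 79.6) and 67.7% (50.1 to 81.4) of the genes' peaks overlapped one of the other replicate, against 65.6% and 56.7% of all pull-down peaks. In the inputs these were 84.7% (73.5 to 91.8) and 65.9% (55.1 to 75.2), against 77.7% and 54.1%. The intervals for the genes include the value for all peaks in 3 of 4 libraries, and input replicate 2 was above it.

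Wide peaks made up 32.2% and 26.8% of the genes' input peaks and 46.9% and 35.5% of their pull-down peaks. The mean was 29.5% ± 3.8 in the inputs and 41.2% ± 8.1 in the pull-downs (SD, n = 2 each, two-sided exact permutation p = 0.33). The difference of 11.7 percentage points was 5.97 without pull-down replicate 1 and 17.4 without pull-down replicate 2. It rested largely on HSP90AB1, whose pull-down peaks were all wide. For the other 6 genes, chosen after the values were seen, 33.3% and 28.6% of input peaks and 39.3% and 28.6% of pull-down peaks were wide, so the groups touched. Over all peaks the order was the other way, with 22.1% and 26.6% for input against 16.2% and 19.2% for pull-down. The median peak of the 7 genes scored above 51.4% and 53.6% of the input lists and above 34.0% and 39.5% of the pull-down lists. The median peak of the genes thus stood near the middle of each input list and below the middle of each pull-down list, and no change is read from lists of such different length.

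Where along the genes the peaks lay did not separate the groups in a stable way. The median peak lay at 51.9% and 59.3% of the gene length in the inputs and at 48.2% and 48.0% in the pull-downs, measured from the 5′ end (two-sided exact permutation p = 0.33). The difference of -7.52 percentage points turned to 6.36 among wide peaks alone, so no direction is given. When each gene was cut into 5 equal parts, the part at the 3′ end held 28.8% and 28.0% of the input peaks of the genes, and 28.1% and 25.8% of the pull-down peaks. That was the largest share of the 5 parts in each library other than pull-down replicate 2.

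The peaks followed the strand of the genes closely. On the opposite strand the inputs had 0 peaks, and the pull-downs had 1 and 2, in GAPDH and HSP90AB1. On the same strand, the 20 kb on either side of each gene had 7 and 10 peaks for input, then 10 and 9 for pull-down, over 40 kb per gene. Their log2 ratio of shares was -1.36, between no difference and the -2.69 of the genes, and rests on few peaks. The flanks did not go the same way. Those of TUBA1B had 0 peaks in each input and 4 in each pull-down, and those of GAPDH had 4 and 5 against 2 and 1. The flanks of each other gene had 0 to 3 peaks per library. The mitochondrial genome, whose RNA is kept outside the nucleus, had a share of 47.8 ± 3.6 in input and 5.80 ± 0.69 in pull-down (per 10000, SD, n = 2 each), or -3.04 on the log2 scale. The 7 genes together lay between their flanks and the mitochondrial genome, but without EEF2 the genes were at -3.37, below the mitochondrial value. These differences were not tested.

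Per length of gene, the order of the genes changed between the groups. In the inputs ACTG1 held the most peaks per kb, 4.14 and 4.83. GAPDH (2.28 and 3.29), ACTB (1.45 and 3.76), HSP90AB1 (1.63 and 2.81) and EEF2 (1.81 and 2.02) followed. GAPDH lay above EEF2 without overlap, and the ranges of the other pairs among these genes overlapped. TUBA1B with 0.802 in each and EEF1A1 held the fewest. In the pull-downs EEF2 held the most, 1.81 per kb in each, above ACTG1 with 1.38 and 1.04 and GAPDH with 0.759 and 1.26, which overlapped. HSP90AB1 (0.591 and 0.443), ACTB (0.290 and 0.579), EEF1A1 (0.379 and 0.189) and TUBA1B (0.267 and 0) followed. EEF2 thus stood among the middle group in the inputs and first in both pull-downs.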

How the data were processed

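The files deposited by the authors are 1 peak list per sample, for 2 input and 2 pull-down samples. Each row deposited by the authors gives a position in bases, a strand and a score, a whole number of at least 10 whose meaning is not stated. STAR, featureCounts and GRCh38 are named, with no versions, per the submitters' processing notes, while the positions fit GRCh37. The peak caller is not given in the sources used here. Nothing in the lists belongs to other samples. Peaks were assigned by midpoint and strand. The 7 gene bodies and 5 kb windows on 1 strand were fitted across the genome in limma 3.58.1 (R 4.3.3), where they averaged 3 peaks or more per library. The fit used the log2 share of the list after adding 0.5 to every count, with eBayes and a mean trend. The fit was tried on simulated independent counts, where the requirement was that changed windows came out in the right direction. Neighbouring peaks may not be independent, so this trial does not show that the p-values hold for these lists. Single values were compared with the two-sided exact permutation test over samples. Intervals are Wilson or exact, at 95%, and cover counting error only. Sites were merged at an overlap of at least 1 base. Alternatives were lists of equal length, score and width subsets, covered bases, other windows, minimums and overlaps, a replicate block and leaving out each library. All 7 members are named. For single peaks, the best-scoring peak of a gene in each group and sites in both pull-downs and no input were named, at most 3 per gene. Further sites listed in all 4 libraries, or at a gene's 5′ end, were chosen after their values were seen. The members, lists and tests were chosen with earlier results of these data known. Other genes have no GRCh37 positions in the tables used here and were not compared.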

Additional observations from a re-analysis of the deposited data

How the results depend on the processing

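The lower combined share in the pull-downs had the same direction under each alternative run. Its log2 ratio of -2.69 became -3.05 in lists of equal length, -3.13 in the better-scoring 50% of each list, -3.08 among narrow peaks, -1.73 among wide peaks, -1.82 with covered bases and -3.37 without EEF2 (the last chosen after seeing the data). With the replicate number as a replicate block it was -2.70, and 5 genes were called, as without it. These 5 include ACTB, which passed the minimum only through its inputs in each setting where it was fitted, so its calls support nothing. The labels do not say whether input and pull-down of the same replicate number come from 1 lysate. The deviations of replicate 1 of both groups from their group means correlated at 0.02 over 388 units. With so few peaks per unit, this value cannot decide whether the libraries are paired. Of the 5 genes called, 3 were called in the better-scoring 50%, where ACTB and ACTG1 fell under the minimum of 3 peaks, and 0 among wide peaks, where EEF2 and HSP90AB1 were the only genes tested. In lists of equal length the genes other than EEF2 passed the minimum only through the inputs, and ACTB, ACTG1 and GAPDH had 0 peaks in both pull-downs. Among narrow peaks HSP90AB1 had 0 in both pull-downs, ACTB had 0 and 1, and ACTG1 had 2 and 2. In the better-scoring 50% GAPDH had 0 and 2. Each of these genes passed there only through the inputs, so their calls in these settings support nothing. Without input replicate 2, ACTB fell under the minimum and 4 were called. The number of genes and windows called lower, 153 of 388 (39.4%), became 59 of 71 (83.1%) in lists of equal length, 46 of 56 (82.1%) in the better-scoring 50%, 63 of 197 (32.0%) among narrow peaks, 10 of 17 (58.8%) among wide peaks, 249 of 591 (42.1%) with windows of 10 kb, 519 of 1074 (48.3%) at a minimum mean of 2 peaks and 51 of 105 (48.6%) at 5. Calls of the genes in the first 2 of these settings were thus near the general rate. Leaving out 1 library gave 131 to 194. In the main fit 91 of 388 were called higher, and 120 (136 lower) after each library was centred on its median window. Leaving out a library moved the number called higher to 153 without input replicate 1, 203 without input replicate 2, 11 without pull-down replicate 1 and 12 without pull-down replicate 2. When an overlap had to cover 50% of each of the overlapping peaks, 64.4% and 46.3% of the genes' input peaks were found again, and 50.0% of the pull-down replicate 1 peaks overlapped an input. In lists of equal length, the 8 and 6 pull-down peaks left in the genes, a share of 100% in each, overlapped an input peak. The difference in median position was -13.1 percentage points among narrow peaks and 6.36 among wide ones. Other causes of these shifts were not tested. Numbers of 0 to 5 pull-down peaks per gene limit every value for a single gene except EEF2.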
